A study of Mus musculus with 6 samples.

Results

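Plasmacytoid dendritic cells were selected on their own transcripts in 5 libraries of CD45+ cells sorted alive from mouse mammary tumours. A cell was chosen by at least 2 Siglech and at least 1 Tcf4 count (unique molecular identifiers, UMIs), with at most 5 summed C1qa, C1qb and C1qc counts, at most 1 summed Cd3e, Cd3d and Cd3g count, at most 1 Cd79a count and no Ncr1 count. This rule kept 797 of 26843 cells that held at least 200 genes and at most 15% mitochondrial counts. The values that chose the cells are given below as a description, with no test.

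Each library carries 1 treatment label, and the labels are not spelled out beyond their letters: MRX, CTX, Combined, ctxd18t and combod18t. The series title names MERTK inhibition and cyclophosphamide in triple negative breast cancer. The protocol describes tumours taken on day 7 from animals dosed 3 hours earlier, and the letters d18 were read here as day 18. A shared on-chip multiplexing run is recorded for MRX, CTX and Combined and not for the d18 libraries, so day and run cannot be told apart. Strain, age, tumour line, doses and the number of animals per library are not given in the sources used here, and the library labelled VC was not analysed here. With 1 library per label there was no replicate check. All intervals are 95% intervals for counting error only, and no p-value was computed.

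Plasmacytoid dendritic cells are the dendritic lineage best known for releasing type I interferon when the endosomal receptors TLR7 and TLR9 meet nucleic acid. Their identity depends on the transcription factor TCF4 (E2-2), and in mice they carry the sialic acid receptor Siglec-H and the antiviral tether BST2. Within tumours they can also make chemokines, cytokines and interferon lambda and present antigen.

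The rule drew on 5440 MRX, 8898 CTX, 4476 Combined, 4011 ctxd18t and 4018 combod18t cells. It returned 306, 215, 163, 79 and 34 plasmacytoid dendritic cells in that order, which hold 2794719, 2447710, 1900182, 1045164 and 461014 UMIs. The median cell had between 8463 UMIs (MRX) and 13338 UMIs (combod18t). A count of 0 therefore allows up to 1.07 counts per 1000000 (CPM) in MRX and up to 6.51 CPM in combod18t, when 3 counts are taken as the limit. No cell barcode of these cells was shared between libraries except 1 held in common by Combined and ctxd18t. Across all kept cells 34 barcodes were shared by CTX and combod18t and 21 by Combined and ctxd18t.

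The label was checked against genes that the rule did not use, with these values. Bst2 stood at 3654, 3204, 3066, 3013 and 2928 CPM in MRX, CTX, Combined, ctxd18t and combod18t, against 205 to 652 CPM in the other cells of the same libraries. Klk1, a kallikrein protease whose close relatives can share its reads, stood at 1354, 1606, 1612, 1244 and 985 CPM, against 11.8 to 50.8 CPM elsewhere. Ccr9, a chemokine receptor of thymus and gut homing cells, stood at 1141, 1157, 1138, 1138 and 967 CPM, against 11.8 to 34.5 CPM. These genes were high in all 5 libraries, and each varied by less than 2-fold between them. The 20 genes that set the cells furthest apart also included Grm8, Cox6a2, Tmem108, Cacna1e, Rell1, Cyb561a3, Rnase6, Flt3, Mctp2 and Blnk. These 20 were picked for their contrast with the other cells, which is therefore a description.

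Siglech itself stood at 1476, 1044, 1146, 1638 and 1737 CPM and Tcf4 at 2741, 2140, 2346, 3462 and 3744 CPM. Few cells lay near the limit: 5, 5, 3, 0 and 2 cells held exactly 2 Siglech counts, and 9, 14, 3, 5 and 2 cells missed the rule with 1 count. Bst2 in the cells with 1 Siglech count was 1074, 1208, 660.5, 339 and 424 CPM, below its level in the cells kept. Of the 1221 cells with enough Siglech and Tcf4, 424 were left out by the limits on other cell types' genes. By library these were 69 of 375 (MRX), 145 of 360 (CTX), 118 of 281 (Combined), 44 of 123 (ctxd18t) and 48 of 82 (combod18t). In combod18t 43 of the 82 were over the limit on Cd3e, Cd3d and Cd3g. The shares below were taken after these limits, and the part of the limits in the share differences was not tested. A gate that replaced Siglech and Tcf4 with at least 3 summed Ccr9, Klk1 and Cox6a2 counts found 811 cells, of which 787 were those of the rule. These genes are among those that set the rule's own cells furthest apart, and the gate kept the limits on other cell types' genes. The overlap is therefore a description, not an independent check.

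Transcripts of other cell types were present in the selected cells to different extents. Trac, a T cell receptor gene, stayed at or below 1.91 CPM and Ms4a1, a B cell marker, at or below 0.957 CPM in each library, and all 7 basophil and mast cell markers were at 0. As lists without the genes the rule limits, which may still hold genes these cells express, 7 of the 10 T cell markers summed to 1648, 1595, 1245, 1810 and 1564 CPM (1514, 944, 1274, 1533 and 2797 CPM in the other cells). Of the 8 B cell markers 7 lie outside the rule and summed to 975, 1011, 1075, 919 and 946 CPM (315, 199, 460.4, 1006 and 697 CPM in the other cells). Monocyte markers were not near 0: the summed level of the 9 was 3905, 7034, 7913, 4233 and 3972 CPM, against 4756, 8649, 8752, 4083 and 2200 CPM in the other cells. Plac8, which is also on the list of plasmacytoid identity genes, made up 2606, 4419, 4814, 2874 and 2017 CPM of the sums in the selected cells. The larger part of each sum is therefore not particular to monocytes. Lyz2, a lysozyme of monocytes and macrophages, was counted in 24.8%, 45.6%, 42.9%, 17.7% and 14.7% of the cells. The 8 neutrophil markers summed to 783, 98.5, 235, 1156 and 62.9 CPM. CTX and Combined thus had Lyz2 in the largest shares of cells, and MRX and ctxd18t carried the most neutrophil transcript. Many results below are therefore also given in limited cells, those with at most 2 Lyz2 counts and at most 1.5 times the library's median UMI count. They number 267, 148, 121, 68 and 30. This limit does not remove neutrophil transcript: S100a9, a neutrophil calgranulin subunit, stood at 377, 5.67, 64.0, 597 and 16.5 CPM and Il1b at 355, 99.7, 34.9, 605 and 13.8 CPM in limited cells.

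The share of plasmacytoid dendritic cells was highest in MRX and lowest in combod18t. They made up 5.63% (95% exact binomial interval 5.03 to 6.27%) of MRX, 2.42% (2.11 to 2.76%) of CTX and 3.64% (3.11 to 4.23%) of Combined. They made up 1.97% (1.56 to 2.45%) of ctxd18t and 0.846% (0.587 to 1.18%) of combod18t. The intervals of MRX, CTX and Combined do not overlap one another, and that of combod18t lies below the other 4. Combined exceeded CTX by 1.23 percentage points (Newcombe interval 0.612 to 1.89), whereas combod18t minus ctxd18t was -1.12 points (-1.66 to -0.613). CTX minus MRX was -3.21 points (-3.92 to -2.53) and Combined minus MRX was -1.98 points (-2.81 to -1.16), 2 differences that share the MRX library. The difference ctxd18t minus CTX, -0.447 points (-0.961 to 0.117), was within counting error.

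Shares depend on every other cell in the sort, and T cells were especially frequent in combod18t. The T cell gate held 2538 of 4018 cells in combod18t and 1288 of 4011 in ctxd18t. With cells of at least 2 T cell receptor complex counts taken out of the denominator, the shares were 9.32%, 3.45%, 5.40%, 3.38% and 3.17%. On that base combod18t minus ctxd18t was -0.219 points (-1.43 to 1.17), within counting error, while Combined minus CTX was 1.95 points (1.06 to 2.92). The monocyte and macrophage gate held 1377, 4174, 1187, 698 and 297 cells, most of them in CTX. With those cells taken out, the shares were 7.53%, 4.55%, 4.96%, 2.38% and 0.914%. On that base Combined minus CTX was 0.405 points (-0.532 to 1.38), within counting error, while combod18t minus ctxd18t was -1.47 points (-2.10 to -0.881). CTX minus MRX and Combined minus MRX were -2.98 points (-3.999 to -1.98) and -2.58 points (-3.67 to -1.47), both beyond counting error. Among dendritic cells alone (the plasmacytoid rule plus gates for type 1, type 2 and migratory dendritic cells) the plasmacytoid share was 78.7%, 56.0%, 79.9%, 51.0% and 60.7% in the same order. The type 2 gate held 90 cells in CTX and 15 in Combined.

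**Figure D1:**
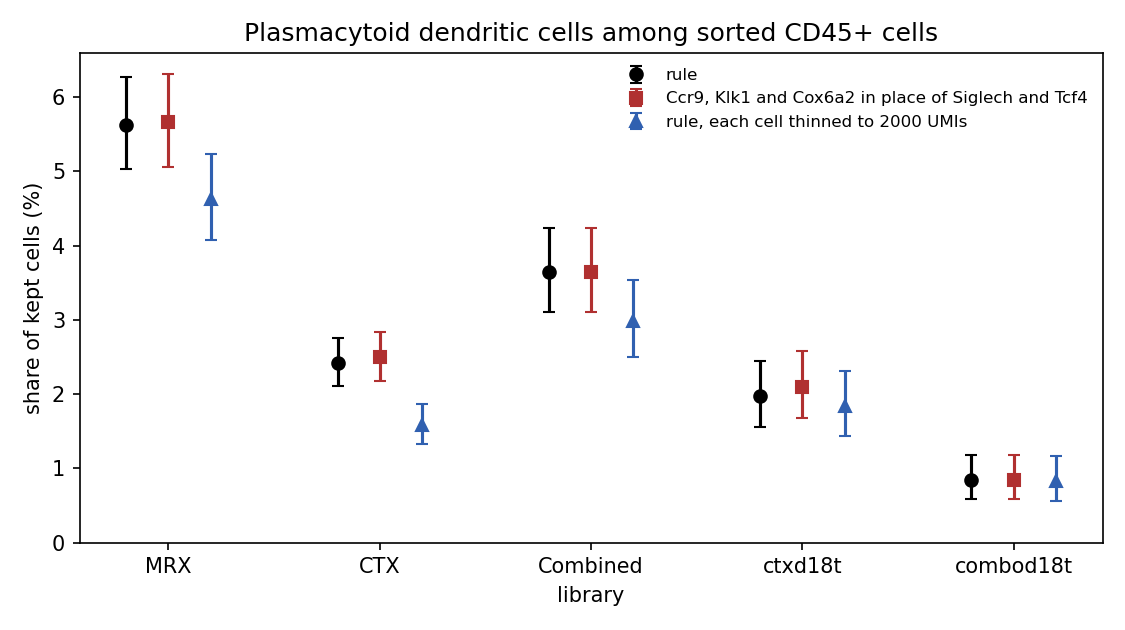
Plasmacytoid dendritic cells as a percentage of kept cells (y axis) in each library (x axis), by the rule (circles), by a gate on Ccr9, Klk1 and Cox6a2 (squares) and by the rule after each cell was thinned to 2000 UMIs (triangles), with 95% exact binomial intervals. The share by the rule ran from 5.63% in MRX to 0.846% in combod18t, and the order of the 3 day 7 libraries was MRX, Combined, CTX in each of the 3 series.

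Gene levels were then compared between libraries as summed counts of the selected cells. A ratio is the log2 of CPM + 1 in the first library over CPM + 1 in the second, with an exact conditional interval, and a gene was considered with at least 50 counts over the pair and a mean of at least 50 CPM. A gene is called here when the ratio passes 2-fold (log2 ratio of 1). Combined against CTX gave 4 higher and 21 lower genes of 3709 considered (0.108% and 0.566%). In combod18t against ctxd18t 50 were higher and 82 lower of 3955 (1.26% and 2.07%). For CTX against MRX the counts were 89 higher and 25 lower of 3655 (2.44% and 0.684%), and for Combined against MRX 60 higher and 29 lower of 3702 (1.62% and 0.783%). In limited cells the splits for CTX and Combined against MRX were 22 higher and 19 lower (0.619% and 0.534% of 3556), and 26 higher and 29 lower (0.713% and 0.795% of 3649), without the excess of higher genes. Limited cells gave 7 higher and 19 lower of 3638 for Combined against CTX and 48 higher and 66 lower of 3890 for combod18t against ctxd18t. With each cell thinned to 2000 UMIs the split was 23 higher and 29 lower for Combined against CTX and 46 higher and 50 lower for Combined against MRX, without the excess of one direction seen in all counts, and 67 higher and 36 lower for CTX against MRX. The d18 libraries stood further from the day 7 libraries: ctxd18t against CTX gave 129 higher and 117 lower of 3824 (3.37% and 3.06%), and combod18t against Combined 217 higher and 189 lower of 3934 (5.52% and 4.8%). With median-of-ratios scaling those last splits became 72 higher and 194 lower, and 101 higher and 326 lower. In limited cells they were 116 higher and 57 lower of 3720, and 198 higher and 136 lower of 3865, and after thinning the second was 111 higher and 151 lower.

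Ccl4 was lower in Combined than in CTX and in combod18t than in ctxd18t. Genes at least as high in these cells as in the other kept cells were ranked by the interval bound nearest 0. Among them Ccl4 came next after Lcn2 among lower genes in the first pair and next after Il12b and Mir155hg in the second pair. One CTX cell held 99.0% of the Lcn2 counts and 1 ctxd18t cell 100% of the Il12b counts of their libraries. Ccl4 encodes the inflammatory chemokine MIP-1 beta. MRX cells held 1681 CPM (1634 to 1730), CTX cells 2609 (2545 to 2674), Combined cells 625 (590.2 to 661.8), ctxd18t cells 2004 (1919.5 to 2092) and combod18t cells 509.7 (447 to 579). Combined and combod18t were low and the other 3 high, with no overlap of the intervals. The log2 ratio was -2.06 (-2.15 to -1.97) for Combined against CTX and -1.97 (-2.18 to -1.78) for combod18t against ctxd18t. These 2 pairs share no library. In limited cells the ratios were -2.58 and -1.36, and in the other kept cells of the same libraries -0.31 and -1.38.

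Ccl4 was carried unevenly by single plasmacytoid dendritic cells. The share of cells with at least 1 count was 64.1%, 75.8%, 59.5%, 72.2% and 64.7%, and the median cell held 182, 326, 97.4, 293 and 76.1 CPM. The highest 10% of cells held 78.0%, 68.9%, 72.1%, 81.2% and 62.6% of all Ccl4 counts. The difference was thus present in the median cell as well as in the sum. Without the single highest cell of each library the ratios were -2.31 and -1.67. Thinned to 2000 UMIs per cell, Ccl4 was found in 40.2%, 52.1%, 34.4%, 49.4% and 30.3% of plasmacytoid dendritic cells and in at most 2.34% of B cells. The median UMI counts before thinning were 8463 to 13338 in the former and 4058 to 8209 in the latter.

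**Figure D2:**
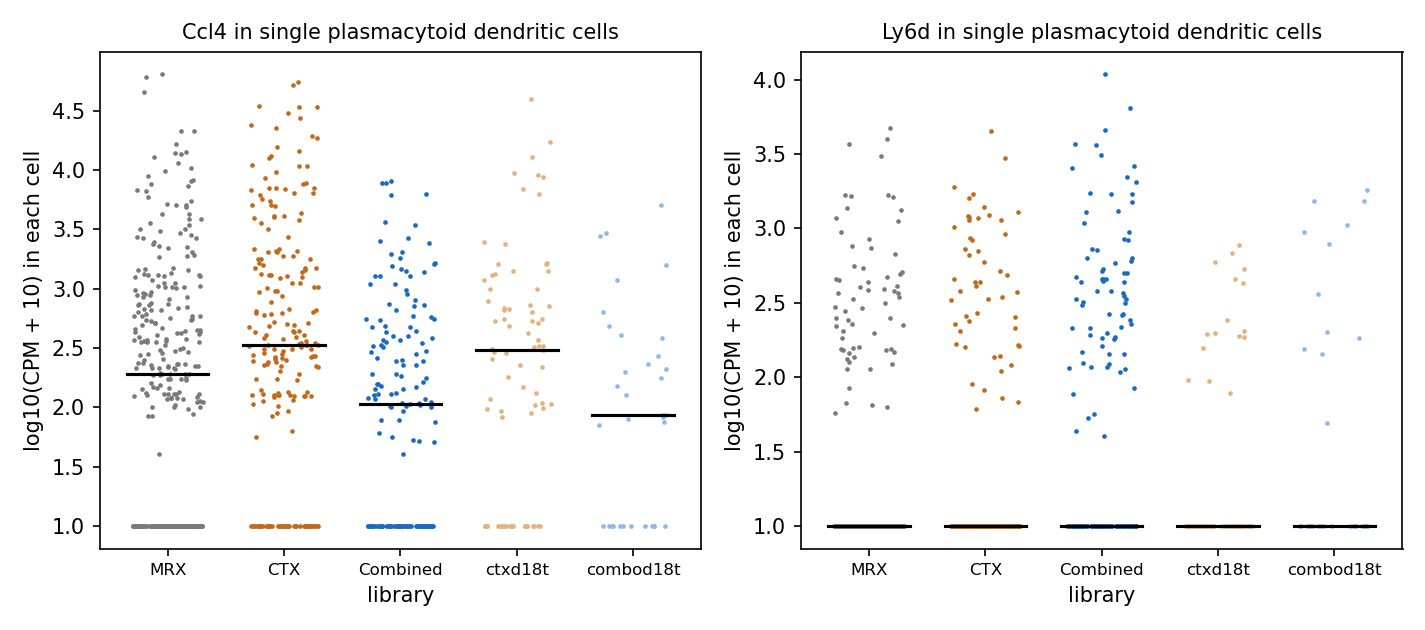
Ccl4 (left) and Ly6d (right) in each plasmacytoid dendritic cell (points) by library, on a log10 axis of CPM + 10, with the median as a bar. The Ccl4 median lies lower in Combined (97.4 CPM) and combod18t (76.1 CPM) than in the other libraries, and Ly6d is found in more cells of Combined (46.6%) and combod18t (35.3%).

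Of the 13 genes called lower in Combined against CTX and the 69 called lower in combod18t against ctxd18t among 3397 considered in both pairs, 7 were in common (53.8% of the first, 10.1% of the second). They were Ccl4, Tnf, Mir155hg, Slamf7, Atf3, Ccnd1 and Tgfbi. Tnf, the inflammatory cytokine, stood at 32.9, 98.9, 45.8, 79.4 and 39.0 CPM. Mir155hg, the host transcript of the activation-linked microRNA miR-155, stood at 51.9, 107, 44.2, 152 and 21.7 CPM. Slamf7, a self-binding immune receptor, stood at 64.8, 117, 54.2, 99.5 and 41.2 CPM. In each of the 3, CTX and ctxd18t held the 2 highest levels and their intervals lay above those of Combined and combod18t, for Tnf by little at d18 (63.2 to 98.4 CPM in ctxd18t, 23.1 to 61.7 CPM in combod18t).

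The ratios of these genes were -1.09 and -1.01 for Tnf, -1.26 and -2.75 for Mir155hg, and -1.09 and -1.25 for Slamf7, with the day 7 pair first. One ctxd18t cell held 47.2% of the 159 Mir155hg counts there, and combod18t held 10 counts in 3 cells; without the top cell of each library the d18 ratio was -2.71. In limited cells they were -1.47 and -0.75 for Tnf, whose d18 value no longer passed 2-fold, -1.60 and -2.55 for Mir155hg, and -1.57 and -1.10 for Slamf7. Zc3h12c, a ribonuclease of the Regnase family, stood at 262, 372, 211, 645 and 269 CPM, with ratios of -0.82 and -1.26, of which the first did not pass 2-fold. Ccnd1, which encodes cyclin D1, stood at 72.6, 185, 85.2, 166 and 49.9 CPM, but 1 CTX cell held 33.6% of its counts there. Atf3, a stress-induced transcription factor, had ratios of -1.13 and -2.11, of which the first was -0.22 in limited cells. Tgfbi, an adhesion protein of macrophages, had ratios of -1.12 and -1.49, which were -0.88 and -0.34 in limited cells, and the second was 0.43 among cells with no count of the other types' genes that the rule limits. Slpi, a secreted protease inhibitor, stood at 590, 962, 476, 435 and 302 CPM, with ratios of -1.01 and -0.53, of which the second did not pass.

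Within each library, cells with most Ccl4 held more Tnf, Mir155hg, Slamf7 and Zc3h12c, as a description, while Ccnd1 and Atf3 did not follow in each. In the highest 10% by Ccl4, Tnf stood at 213, 583, 118, 360 and 168 CPM, against 13.1, 52.0, 37.5, 47.0 and 26.2 CPM in the rest. Zc3h12c there stood at 925, 1276, 532, 2170 and 1054 CPM, against 189, 285, 174, 469 and 191 CPM. Ccnd1 stood at 57.8, 111, 102, 148 and 71.8 CPM in the first group and 74.3, 192, 83.3, 169 and 47.7 CPM in the rest, and Atf3 in MRX at 36.1 against 46.5 CPM. The highest 10% are 31, 22, 16, 8 and 3 cells. Of the 19 cytokine and chemokine genes, 9 were considered in Combined against CTX, 5 lower and 0 higher, beside 0.566% and 0.108% of all genes. Their median ratio was -1.02, beside 0.06 over all genes. The 5 include Ccl4, Tnf and Cxcl11, the last at 1.69 in limited cells. In combod18t against ctxd18t 6 were considered, 4 lower and 1 higher, beside 2.07% and 1.26% of all genes (median -1.42, beside 0.05 over all genes). The 4 were Ccl4, Tnf, Il1b and Il12b, whose ctxd18t counts lay in 1 cell. The higher gene, Cxcl10, rested on 1 combod18t cell. In limited cells these medians were -1.49 and -1.36, the second being the ratio of Ccl4 itself. Genes of dissociation and stress, which tissue digestion can induce, had medians of -0.11 and -0.53. Of these 2 of 17 and 4 of 16 were lower, beside 0.566% and 2.07% of all genes. Jun stood at 212, 249, 268, 393 and 139 CPM. The neutrophil markers, at 1156 CPM in ctxd18t and 62.9 CPM in combod18t, moved with the d18 difference, also in limited cells (S100a9 597 against 16.5 CPM, Il1b 605 against 13.8 CPM). The part of stress genes and of neutrophil transcript in the cytokine result was not tested.

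Ly6d was the single gene called higher in both pairs, out of 2 in the day 7 pair (50%) and 30 in the d18 pair (3.33%) among the genes considered in both. It encodes a surface protein known from lymphoid progenitors with plasmacytoid and B cell potential. Its level was 125 CPM (112 to 139) for MRX, 136 (121 to 151) for CTX, 406 (378 to 435) for Combined, 60.3 (46.3 to 77.1) for ctxd18t and 239 (196 to 288) for combod18t. Combined and combod18t were above all 3 others. The ratios were 1.57 (1.39 to 1.77) and 1.97 (1.53 to 2.46), and 1.55 and 2.59 in limited cells. Ly6d was counted in 21.6%, 24.2%, 46.6%, 20.3% and 35.3% of the cells. In B cells, which also carry it, the levels were 99.9, 126, 92.5, 102 and 77.1 CPM and did not show that order, and T cells held at most 2.7 CPM.

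**Figure D3:**
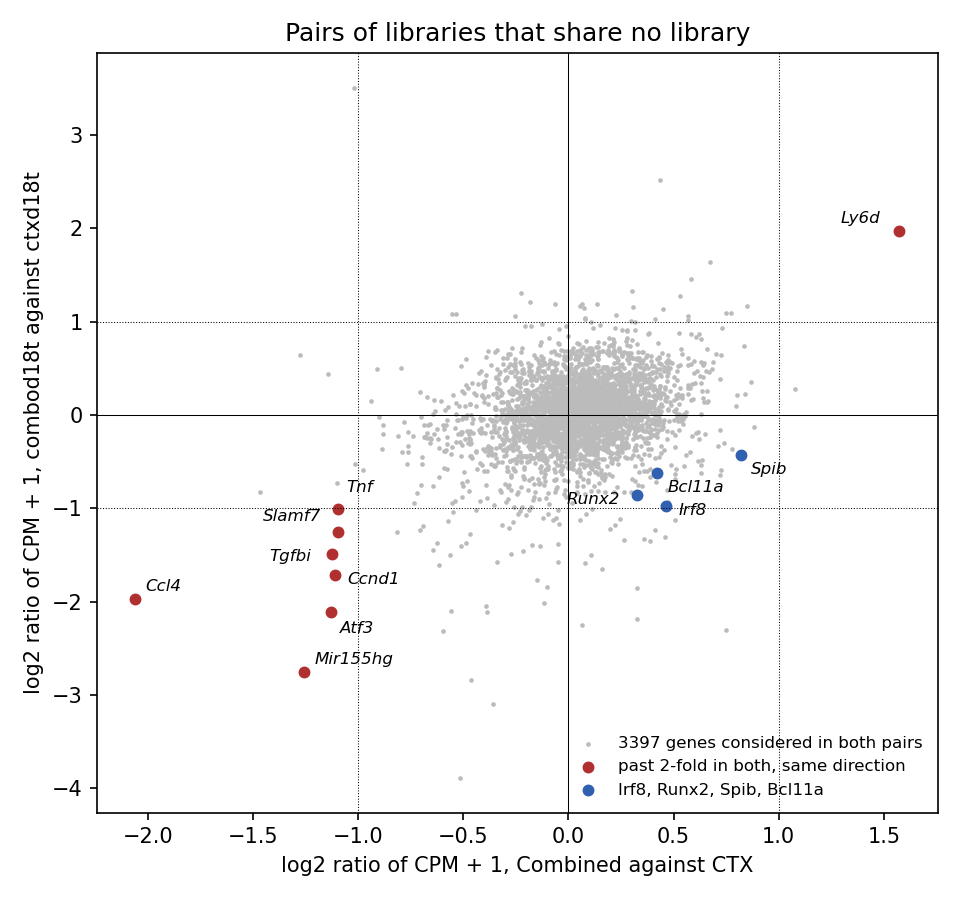
Log2 ratio of each of the 3397 genes considered in both pairs, Combined against CTX (x axis) and combod18t against ctxd18t (y axis), in plasmacytoid dendritic cells. Red points passed 2-fold in the same direction in both, dotted lines mark 2-fold, and Ccl4 (-2.06 and -1.97) and Ly6d (1.57 and 1.97) are marked; blue points are 4 transcription factors with opposite signs.

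Of the 18 transcription factors of the lineage and their antagonists 15 were considered in each of these pairs, none was called, and the list medians were -0.04 and -0.05. Irf8, Spib, Runx2 and Bcl11a are given because their ratios had opposite signs in the pairs. Irf8, a factor that plasmacytoid and type 1 conventional dendritic cells depend on to different degrees, stood at 1007, 1156, 1597, 1431 and 727 CPM. Its ratio was 0.47 (0.39 to 0.54) in Combined against CTX and -0.98 (-1.15 to -0.81) in combod18t against ctxd18t. Irf8 was thus highest in Combined and lowest in combod18t. Spib, an Ets factor of plasmacytoid and B cells, stood at 218, 155, 274, 182 and 134 CPM, Runx2 at 487, 462, 580.5, 1052 and 579 CPM, and Bcl11a at 179, 196, 263, 552 and 358 CPM. These 3 had ratios of 0.82, 0.33 and 0.42 in the day 7 pair and -0.43, -0.86 and -0.62 in the d18 pair. The difference between the pairs was not tested.

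Other genes ranked highest in Combined against CTX were Socs2, a suppressor of cytokine signalling (87.9 against 33.1 CPM, ratio 1.38), Lars2, a mitochondrial leucine tRNA synthetase (184 against 86.6 CPM, ratio 1.08), and, short of 2-fold, Arid3a (197 against 106 CPM, 0.88), Aff3 (833 against 541 CPM, 0.62) and Klf2, a factor of quiescence and trafficking (204 against 123 CPM, 0.73). Aff3 also stood higher in combod18t than in ctxd18t (1631 against 890 CPM, ratio 0.87), and Klf2 lower (180.0 against 272 CPM, -0.59). Among the genes ranked highest in combod18t against ctxd18t, Cxcl10, Rsad2 and Ddx60 rested on single cells. One cell held 100% of the Cxcl10, 98.6% of the Rsad2 and 93.0% of the Ddx60 counts of combod18t. Without the top cell of each library the ratios of these 3 went from 3.51, 1.63 and 2.62 to -1.62, -2.86 and -0.67. Ranked lowest in that pair were also Oasl1 (-2.32, with 42.5% of its ctxd18t counts in 1 cell, and -2.26 without the top cells) and Ifi204 (-2.11), both interferon-stimulated, and Tfrc (-2.07), the transferrin receptor.

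Against MRX, the considered genes of class I antigen presentation had ratios above 0 in both CTX and Combined, most of them short of 2-fold. These genes encode the class I molecules that show peptides to CD8 T cells, the immunoproteasome that cuts the peptides, and the transporter that loads them. B2m, the shared light chain, stood at 3093 CPM (3028.5 to 3159) for MRX, 4597 (4512 to 4683) for CTX, 4641 (4544 to 4738.5) for Combined, 2847 (2746 to 2952) for ctxd18t and 2406 (2266 to 2551) for combod18t. CTX and Combined did not differ beyond their intervals and were above the other 3. The heavy chain H2-K1 stood at 2104, 2776, 2985.5, 1636 and 1759 CPM and H2-D1 at 2415, 3228, 3382, 1835 and 1718 CPM; the 2 are near-identical in places and their reads may be split between them. All 17 considered of the 19 class I genes had a ratio above 0 in each of these comparisons, which share MRX. Their medians were 0.48 in CTX and 0.58 in Combined, beside -0.03 and 0.03 over all genes. Of the 17, 0 and 4 were called higher, beside 2.44% and 1.62% of all genes. In limited cells the medians were 0.42 and 0.58, with 0 and 2 of 17 called higher, beside 0.619% and 0.713% of all genes.

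Psmb8, Psmb9 and Tap1 serve peptide cutting and loading. Psmb8, an immunoproteasome subunit, stood at 361, 661, 702, 410.5 and 308 CPM, with ratios to MRX of 0.87 in CTX and 0.96 in Combined. Psmb9 stood at 248, 457, 450.0, 272 and 167 CPM, and Tap1, the peptide transporter, at 55.8, 102, 140.0, 65.1 and 49.9 CPM. For Tap1 the ratios to MRX were 0.85 and 1.31, and 0.58 and 1.22 in limited cells. The other kept cells of the same libraries had Tap1 ratios of 0.85 and 1.00 and B2m ratios of 0.58 and 0.44, values of like size.

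Interferon-gamma induced genes were above their MRX level in CTX and Combined. Their list shares Psmb8, Psmb9, Psmb10, Tap1 and Nlrc5 with the class I list, so the results overlap. Of the 26 interferon-gamma induced genes, 13 were considered in CTX against MRX and 12 in Combined against MRX, and all had a ratio above 0. Called higher were 5 and 6, beside 2.44% and 1.62% of all genes. The medians were 0.87 and 1.12, beside -0.03 and 0.03 over all genes. In limited cells 1 of 10 and 3 of 10 were called, beside 0.619% and 0.713% of all genes, and the medians were 0.46 and 0.81. Iigp1, an interferon-inducible GTPase, stood at 26.8, 138, 145, 64.1 and 8.68 CPM, with ratios to MRX of 2.33 and 2.39 (2.24 and 2.77 in limited cells). Ly6a, an interferon-responsive surface protein, stood at 436, 1016, 1147, 445 and 252 CPM, with ratios of 1.22 and 1.39 (1.30 and 1.42 in limited cells). Iigp1 and Ly6a were high in CTX and Combined and lower at d18, where combod18t was lowest.

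Other members moved with monocyte transcript. Cxcl9, a chemokine for CXCR3-bearing cells, stood at 15.4, 213, 262, 4.78 and 4.34 CPM, but at 2.8, 4.9, 5.8, 0 and 0 CPM in limited cells. Cells of the monocyte and macrophage gate held 291, 1045, 983, 278 and 226 CPM. Cd274, which encodes PD-L1, had ratios to MRX of 1.57 and 1.38 and of -0.06 and 0.58 in limited cells. Class II genes behaved likewise: 2 of 12 were called higher in CTX against MRX, beside 2.44% of all genes. Their median was 0.66, and 0.04 in limited cells. H2-Aa stood at 3139, 4587, 3628, 3037 and 3462 CPM, and at 2808, 2319, 2215, 2373 and 2819 CPM in limited cells. The part of monocyte transcripts in the Cxcl9, Cd274 and class II differences was not tested.

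Promoter sequences of some genes above are shown, with those of Gbp2 and Irgm1 from the interferon-gamma induced list. They are shown because they hold letters read by the factors of interferon and NF-kB signalling. They come from the 250 bases before each start in RefSeq on GRCm38.p6, while the counts were made on GRCm39, so genes were matched by symbol. Capitals mark an interferon-stimulated response element (ISRE, GAAANNGAAA), a gamma-activated site (GAS, TTCNNNGAA) or an NF-kB site, searched on both strands, and coordinates are those of GRCm38.p6.
B2m, chr2:122147533-122147585, plus strand, an ISRE followed by an NF-kB site: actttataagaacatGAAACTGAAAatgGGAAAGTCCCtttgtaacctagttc
H2-K1, chr17:34000433-34000473, minus strand, a pair of NF-kB matches offset by 1 base: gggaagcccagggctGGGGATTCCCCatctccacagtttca
H2-D1, chr17:35262908-35262948, plus strand, a pair of NF-kB matches offset by 1 base: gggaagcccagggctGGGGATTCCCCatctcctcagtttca
Psmb8, chr17:34198083-34198121, plus strand, a GAS: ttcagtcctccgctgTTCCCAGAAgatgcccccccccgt
Gbp2, chr3:142620589-142620628, plus strand, an ISRE read on the other strand: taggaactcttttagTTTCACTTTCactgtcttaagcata
Irgm1, chr11:48871421-48871465, minus strand, a pair of overlapping ISREs: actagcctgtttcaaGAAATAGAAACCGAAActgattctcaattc
Irf8, chr8:120736172-120736228, plus strand, a pair of GAS matches: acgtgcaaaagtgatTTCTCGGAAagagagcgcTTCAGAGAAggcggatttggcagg

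Among the interferon-gamma induced genes, 19 of 26 had a window, of which 11 held an ISRE and 8 a GAS. Among class I genes 16 of 19 had a window, of which 2 held an ISRE, 1 a GAS and 6 an NF-kB site. Over all 27025 genes with a window the shares were 3.46% for the ISRE, 8.13% for the GAS and 8.23% for the NF-kB site. The windows of a chromosome that was set aside are left out of the list counts, but not of the all-gene shares. The windows of Tap1, Psmb9 and Tnf held none of the 3. A match is a description of letters, not of binding. Irgm1 stood at 48.0, 66.2, 86.8, 62.2 and 41.2 CPM and Gbp2 at 8.23, 44.5, 77.4, 26.8 and 32.5 CPM, the latter at 3.2, 0.8, 1.9, 15.1 and 0 CPM in limited cells.

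**Figure D4:**
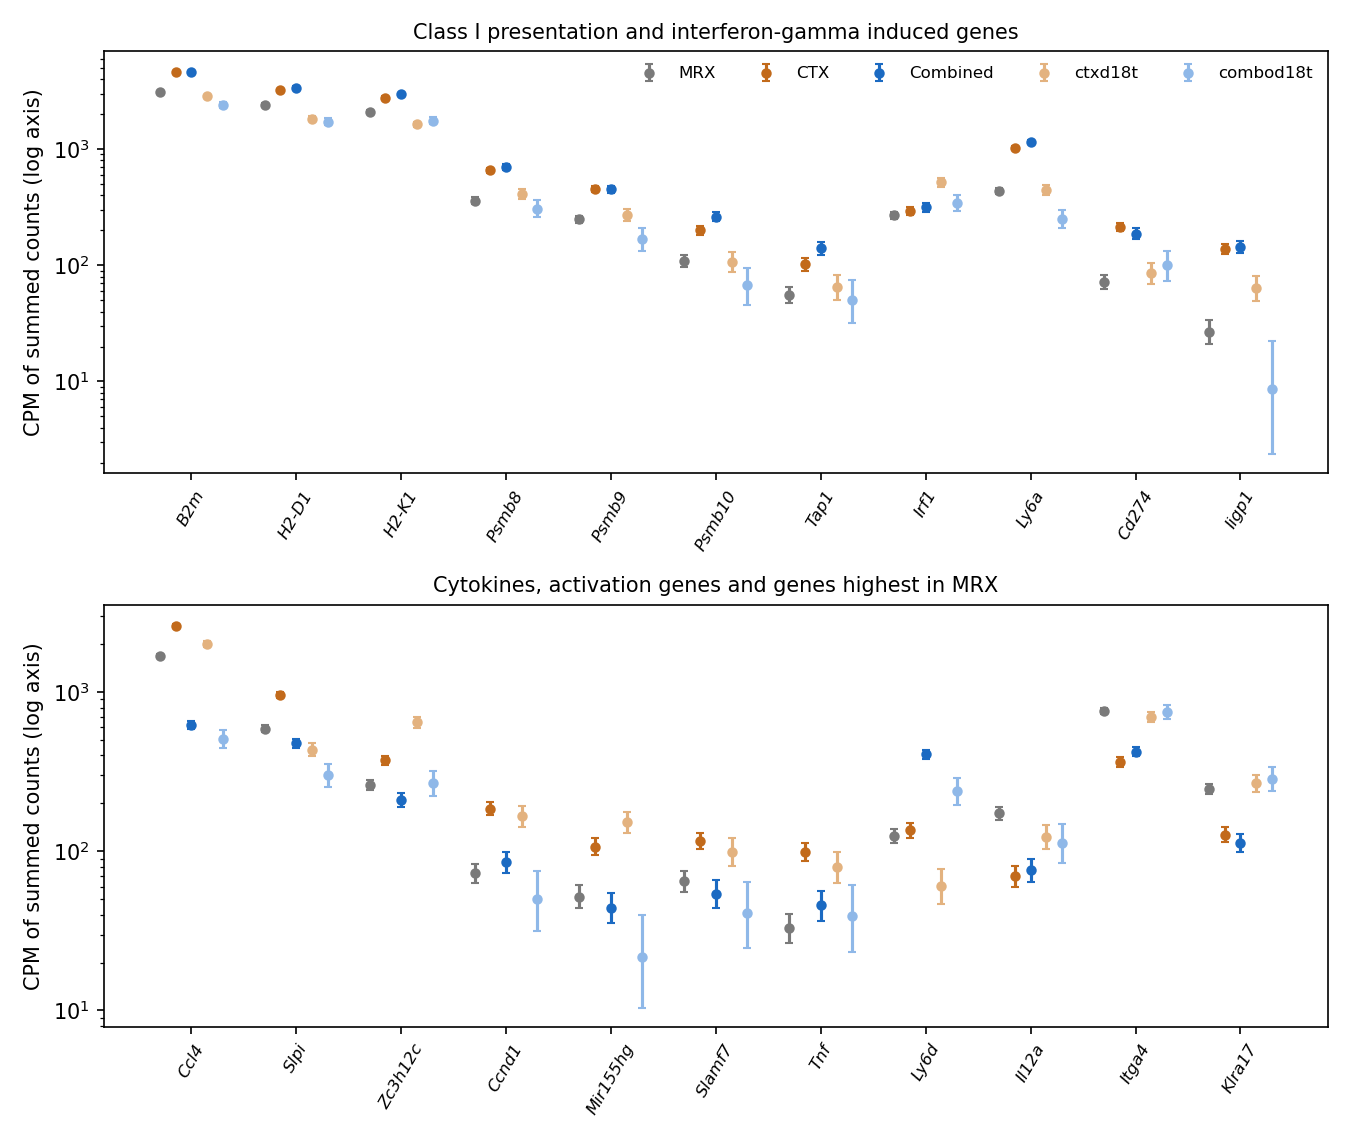
CPM of summed counts (log axis) for 22 genes in plasmacytoid dendritic cells of the 5 libraries, with 95% exact Poisson intervals. Class I and interferon-gamma induced genes such as B2m and Iigp1 were highest in CTX and Combined, Ccl4 was lowest in Combined and combod18t, and Il12a and Itga4 were lowest in CTX and Combined.

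Il12a, Itga4, Klra17 and Igf1r, picked for this pattern, were lower in CTX and Combined than in MRX. Il12a, the p35 subunit of interleukin 12, stood at 173 CPM (158 to 189) for MRX, 69.9 (59.8 to 81.2) for CTX, 76.3 (64.4 to 89.8) for Combined, 123 (103 to 147) for ctxd18t and 113 (84.2 to 148) for combod18t. CTX and Combined did not differ beyond their intervals and lay below the other 3, apart from combod18t, whose interval overlaps that of Combined. The ratios to MRX were -1.29 and -1.17, and -1.43 and -0.90 in limited cells. Itga4, the alpha 4 integrin, stood at 756, 364, 423, 696 and 751 CPM, with ratios of -1.05 and -0.84, and of -0.92 and -0.86 in limited cells, where the first no longer passed 2-fold. Klra17, the class I receptor Ly49Q of plasmacytoid dendritic cells, stood at 247, 127, 113, 268 and 284 CPM, with ratios of -0.95 and -1.12 (-0.48 and -0.93 in limited cells). Igf1r, the receptor of insulin-like growth factor, stood at 194, 79.7, 94.2, 166 and 199.6 CPM. Itga4, Klra17 and Igf1r in the d18 libraries lay near their MRX level, and Il12a lay between MRX and CTX.

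The type I interferon genes themselves were almost silent. The 18 type I genes together gave 0, 1, 3, 0 and 0 counts, 4 counts in 4 of 797 cells. A count of 0 allows a share of cells with a count of up to 0.980% for MRX, 3.80% for ctxd18t and 8.82% for combod18t. The 2 type III genes, which encode interferon lambda, gave 22, 60, 24, 8 and 0 counts in 7, 8, 9, 3 and 0 cells, or 27 cells in all. Their level was 7.87, 24.5, 12.6, 7.65 and 0 CPM, against 0.0811, 1.72, 0.204, 0.0836 and 0.0242 CPM in the other cells. Tlr7 stood at 150.3, 168, 119, 229 and 149.7 CPM and Irf7, the factor that drives interferon transcription, at 333, 335, 357, 314 and 193 CPM. Of the 22 TLR7 and TLR9 pathway genes 15 to 17 were considered in each comparison, with medians between 0.00 and 0.31, and Spp1 was the single gene called in any. One ctxd18t cell held 93% of its counts there.

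Mertk, the receptor named in the series title, was close to absent from these cells, with 2, 12, 3, 1 and 0 counts. That is 0.716, 4.90, 1.58, 0.957 and 0 CPM, against 6.48 to 13.7 CPM in the other kept cells. In limited cells Mertk stood at 0 CPM in each library. None of the 5 TAM receptors and ligands reached the minimum for a comparison. Interferon-stimulated genes had medians of 0.50 in CTX and 0.32 in Combined against MRX, and of -0.16 and -0.37 in Combined against CTX and combod18t against ctxd18t. In limited cells these were 0.27, 0.24, 0.01 and -0.80. The last had 5 of 12 lower and 0 higher, beside 1.70% lower and 1.23% higher of all genes in limited cells. In all cells that pair had 4 lower and 2 higher of 18, beside 2.07% and 1.26% of all genes. Ifi44 stood at 264, 371, 304, 272 and 117 CPM and Ifi27l2a at 804, 1002, 725, 410.5 and 340.5 CPM, both lowest in combod18t.

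Between d18 and day 7 the libraries differed in many genes, and day, run and cell depth moved together. B2m was lower in ctxd18t than in CTX (ratio -0.69) and lower in combod18t than in Combined (-0.95). The class I list had medians of -0.66 and -0.92, with 0 and 7 of 18 called lower. The interferon-gamma induced list had medians of -0.69 and -1.21, with 4 of 13 and 9 of 14 called lower. Over all genes 3.06% and 4.8% were called lower. In limited cells the interferon-gamma medians were -0.08 with 0 of 10 lower and -1.05 with 7 of 10 lower, so the ctxd18t difference was not seen there. The class I medians in limited cells were -0.52 and -0.91, with 0 and 5 of 18 lower. Over all genes in limited cells 1.53% and 3.52% were lower. Genes of oxidative phosphorylation and glycolysis were also lower, 7 and 9 of 21, beside 3.06% and 4.8% of all genes. Their medians were -0.86 and -0.84, beside 0.15 and 0.17 over all genes. In limited cells 3 of 21 and 5 of 19 were lower, beside 1.53% and 3.52% of all genes, with medians of -0.62 and -0.60. Gapdh stood at 457, 769, 704, 368 and 241 CPM and Cox5a, a respiratory chain subunit, at 291, 530, 528, 255 and 230 CPM. Lifr, the receptor of leukaemia inhibitory factor, was higher at d18, at 162, 122, 126, 347 and 297 CPM (ratios 1.5 and 1.23). The share of counts in ribosomal protein genes went from 11.4% (MRX) to 9.54% (Combined) at day 7 and was 7.95% and 7.24% at d18, and its part in these differences was not tested.

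**Figure D5:**
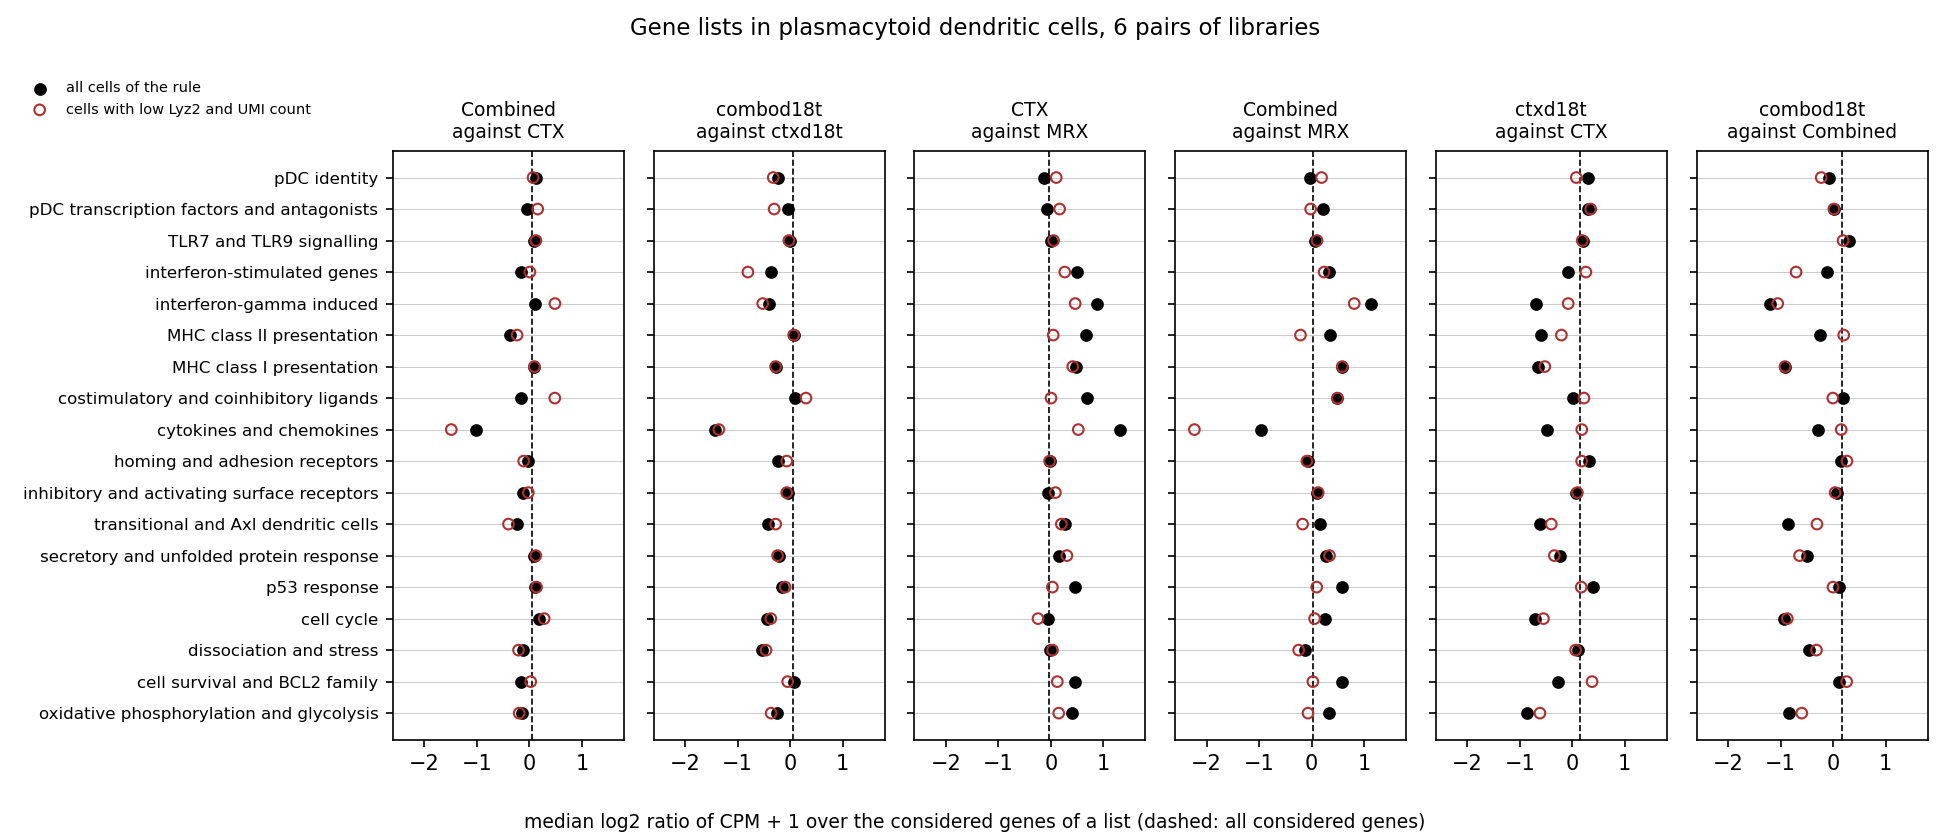
Median log2 ratio of CPM + 1 over the considered genes of each list (rows) in 6 pairs of libraries (columns), in all plasmacytoid dendritic cells (filled) and in limited cells (open), with the median over all considered genes as a dashed line. In all cells the cytokine and chemokine list lies lowest in Combined against CTX (-1.02) and combod18t against ctxd18t (-1.42), and the interferon-gamma induced list lies highest of the presentation and interferon lists in Combined against MRX (1.12). In CTX against MRX the cytokine and chemokine median was 1.31, with 6 of 10 higher and 1 lower, beside 2.44% and 0.684% of all genes. In limited cells it was 0.52 there, with 1 of 6 higher and 2 lower, beside 0.619% and 0.534% of all genes. In limited cells the cytokine and chemokine median was -2.23 in Combined against MRX, with 3 of 4 lower, beside 0.795% of all genes.

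Transitional and Axl dendritic cell genes, which mark cells between plasmacytoid and conventional types, had medians of -0.62 in ctxd18t against CTX and -0.85 in combod18t against Combined, with 2 of 8 lower in each, beside 3.06% and 4.8% of all genes and all-gene medians of 0.15 and 0.17. In limited cells the medians were -0.40 and -0.31, with 1 of 5 lower in each, beside 1.53% and 3.52% of all genes. In the second 1 was higher, beside 5.12% of all genes. Costimulatory and coinhibitory ligands had a median of 0.69 in CTX against MRX, with 3 of 8 higher beside 2.44% of all genes, and of 0.00 with 0 of 4 in limited cells. In Combined against MRX the median was 0.48, with 2 of 7 higher beside 1.62% of all genes, and 0.49 with 0 of 5 in limited cells. Of the 30 identity genes, 29 or 30 were considered in every comparison with medians between -0.23 and 0.30. At most 6 were called in one direction, lower in combod18t against Combined, beside 4.8% of all genes. In limited cells 8 of 30 were lower in that comparison, beside 3.52% of all genes considered there. Homing and adhesion receptors had medians between -0.23 and 0.31, and inhibitory and activating surface receptors between -0.12 and 0.11. In those comparisons 5 to 7 genes of the p53 response were considered and none was called. Cell cycle genes were mostly below the minimum: 3 of 22 were considered, with medians of -0.72 and -0.93 in ctxd18t against CTX and combod18t against Combined. Sdf2l1, a chaperone of the secretory pathway, stood at 83.7, 145, 198, 73.7 and 67.2 CPM, and the secretory and unfolded protein list had medians of 0.16 and 0.28 against MRX in CTX and Combined and of -0.50 in combod18t against Combined.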

How the data were processed

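Live CD45+ cells were profiled with 10x 3' chemistry, and per the submitters' processing notes reads were aligned to GRCm39 with Cell Ranger 9.0.1 and analysed with Seurat 5.2.0. The deposited matrices hold raw UMI counts of 33696 features per cell, 1 matrix per label, and were used as deposited. Cells were kept by the rule given above and their counts summed per library, so the precision of a level follows the 461014 to 2794719 UMIs behind it. The members, gene lists and comparisons were chosen with earlier results of these data known. Genes were named if used by the rule, if in a list (up to 6 members, by level and by passing 2-fold), or if among the 10 (5 in pairs other than the first ones) with the largest ratio bound in each direction, which had to be at least as high in these cells as in the others; further genes, among them Klra17, Igf1r, Gapdh and Iigp1, were chosen after their values were seen. Doublets were scored with Scrublet in scanpy 1.11.5, whose automatic threshold marked under 0.5% of cells in 4 libraries and 4.54% (247 of 5440) in MRX, so none was removed by it; leaving out the highest 5% of scores removes 35 of 306 plasmacytoid dendritic cells in MRX and 0 to 4 in the others. Intervals came from scipy 1.17.1. On simulated counts for Combined against CTX, 200 of 200 changed genes among 3709 were called, and 0 of 3509 unchanged ones. For combod18t against ctxd18t these were 198 of 200 among 3955 and 7 of 3755. The simulated counts held counting noise only, with no spread between cells or animals, and each true change was larger than 2-fold. The check therefore gives no error rate for the calls in the real data.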

Additional observations from a re-analysis of the deposited data

Results flagged for a closer look

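Some differences between the labels Combined or combod18t and CTX or ctxd18t had opposite signs at day 7 and at d18 in plasmacytoid dendritic cells. These opposite signs were not tested, and each side is 1 library against 1. The share of plasmacytoid dendritic cells was 1.23 points higher in Combined than in CTX and differed by -1.12 points in combod18t minus ctxd18t, but the first was 0.405 points and within counting error without cells of the monocyte and macrophage gate, and the second was -0.219 points and within counting error without cells of 2 or more T cell receptor complex counts. As a share of dendritic cells both pairs had the same sign, 79.9% in Combined against 56.0% in CTX and 60.7% in combod18t against 51.0% in ctxd18t. The d18 intervals overlapped (46.8 to 73.5% in combod18t, 42.8 to 59.1% in ctxd18t). Those of day 7 did not (73.7 to 85.2% in Combined, 50.9 to 61.0% in CTX). Among transcription factors the log2 ratios were 0.47 and -0.98 for Irf8, 0.82 and -0.43 for Spib, 0.42 and -0.62 for Bcl11a, 0.33 and -0.86 for Runx2 and 0.73 and -0.59 for Klf2, in the same order. Psmb10, an immunoproteasome subunit, had 0.39 and -0.66, and Atp5l, a subunit of ATP synthase, had -0.30 and 0.38. Cxcl10, an interferon-induced chemokine, had -1.02 and 3.51, and 1 combod18t cell held all of its counts there.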

How the results depend on the processing

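No paired analysis was possible because each label has 1 library. Of the values that could be compared across alternatives, 59 counts of called genes stayed within 1.5 times and 19 did not, and 38 values of called genes and 2 list medians at least 0.5 from the median of all genes turned in direction. Without that minimum, 22 of 108 list medians had another sign in limited cells, each of them at most 0.47 in size in all cells. Some alternatives, such as the limit on Lyz2 and UMI count and leaving out the top cell, were chosen after seeing the data. Without cells of 2 or more T cell receptor complex counts the share differences were 1.95 points for Combined minus CTX, -0.219 for combod18t minus ctxd18t, -5.87 for CTX minus MRX and -3.92 for Combined minus MRX. Without cells of the monocyte and macrophage gate, a denominator added after seeing the data, Combined minus CTX was 0.405 points. With thinning, the genes called numbered 52 (23 higher, 29 lower) for Combined against CTX (25 in the report), 35 for combod18t against ctxd18t (132) and 262 for combod18t against Combined (406). With minimums of 20 counts and 20 CPM they numbered, in the order of the report, 65, 402, 238, 203, 501 and 854 (25, 132, 114, 89, 246 and 406 in the report), and with 200 counts and 100 CPM 6, 28, 50, 43, 125 and 175, since fewer genes are considered. A pseudocount of 10 CPM gave 16 for Combined against CTX. Limited cells gave 41 (22 higher, 19 lower) for CTX against MRX and 55 (26 higher, 29 lower) for Combined against MRX, and the latter gave 137 without the highest Scrublet scores.

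Values that turned in direction follow, and the cause was not tested unless a single cell is named. The cytokine list median became 0.46 for Combined against MRX with 20 counts and 20 CPM, and 0.18 for ctxd18t against CTX in limited cells. In limited cells, Cxcl11 became 1.69 for Combined against CTX. For CTX against MRX in limited cells Lcn2 became -1.22, Il1b -1.82, Ifitm3 -0.51, Cxcl16 -0.12, Id2 -0.23 and Cd274 -0.056. For Combined against MRX in limited cells Il1b became -3.31 and Bcl2a1b -1.45, and Gbp4 became -0.063 when thinned. In combod18t against ctxd18t, Cxcl10 became -3.24 without the highest Scrublet scores, -1.81 in limited cells and -1.62 without the top cell. Rsad2 became -2.30, -2.98 and -2.86 in that order, and Ddx60 -0.42, -0.68 and -0.67. Herc6 became -0.98, -1.16 and -0.88, and -0.12 when thinned. Spp1 became 0.27 and 0.72 under the first 2 of these settings, and Tgfbi 0.43 with no count of the other types' genes. Without the highest Scrublet scores Spp1 became 1.59 for CTX against MRX and 1.12 for Combined against MRX. Against day 7, Ddx60 in combod18t became -1.35 without the highest Scrublet scores, -0.33 in limited cells and -1.09 without the top cell, and Rsad2 became -1.81 and -1.40 under the first and last of these. In ctxd18t against CTX, Lcn2 became 3.24 in limited cells, 0.18 as a mean of cells and 2.95 without the top cell, and Il12b -5.34 without the top cell. Lcn2 became -1.35 for CTX against MRX without the top cell.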
